A study of Mus musculus with 8 samples.

Results

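The interferon-stimulated antiviral effector genes described here are 43 mouse genes taken from a list of names, which was chosen with earlier results of these data known. These genes are 43 of 49671 gene rows in the count files, and each was found under 1 Ensembl identifier of GRCm38. The list holds 10 IFIT, OAS and MX genes, usually counted as type I interferon genes, 8 GBP and IRG genes, usually counted as interferon-gamma genes, and 25 remaining members. Polyadenylated RNA was sequenced from 8 mouse samples labelled adipocytes, 4 labelled BMPR2 DELX and 4 labelled ROSA. BMPR2 DELX names mutant mice, after Bmpr2, a receptor of bone morphogenetic proteins, and ROSA mice are their control. The labels give no more on either genotype and no age, sex, driver of the allele, drug or culture, and do not say whether the 4 samples of a group came from separate animals, so every p-value measures the spread between these samples.

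Totals assigned to genes ran from 28799445 to 43684785 counts per library, and levels are counts per 1e6 counts (CPM) after trimmed mean of M values (TMM) scaling. Bmpr2 itself had 237, 208, 201 and 199 CPM in BMPR2 DELX 1 to 4 and 216, 207, 183 and 183 CPM in ROSA 1 to 4, with overlapping groups (log2 fold change 0.10 ± 0.08 SE, adjusted p 0.47), and a count over the whole gene does not check an altered allele. Of 15 markers of mature adipocytes, 9 stayed under 1 CPM in every library. Adipoq, the adipocyte hormone adiponectin, reached 6 counts at most and Plin1, the lipid droplet coat protein, 2 counts, while the fibroblast collagen Col1a1 averaged 6106 ± 1011 CPM in the BMPR2 DELX libraries and 5154 ± 747 CPM in the ROSA libraries (SD, n = 4). The 15 markers summed to 315 to 386 CPM in BMPR2 DELX and 261 to 293 CPM in ROSA, and of the 6 tested, the lipoprotein lipase gene Lpl rose (0.58 ± 0.13, edgeR adjusted p 0.024, lost without BMPR2 DELX 3, BMPR2 DELX 4, ROSA 1 or ROSA 2) and 5 did not pass. Its part in the results on the members was not tested, and the libraries are named by their labels. Endothelial markers summed to 747 to 2698 CPM in BMPR2 DELX and 1313 to 2674 CPM in ROSA. In such bulk samples, fewer cells of a type and less RNA per cell cannot be told apart.

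Interferons are secreted proteins that make cells resist viruses. Type I interferons bind the receptor pair Ifnar1 and Ifnar2 and act through a complex that includes Stat2 and Irf9 and binds the interferon-stimulated response element (ISRE). Interferon-gamma binds Ifngr1 and Ifngr2 and acts largely through the gamma-activated site (GAS), and many target genes answer to both.

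The start regions of the members hold these DNA words unevenly, and 6 of them are shown because they belong to genes on which the results turn. Promoter windows from RefSeq (GRCm38.p6), 300 bases long with 250 before and 50 after the start, matched 32 members and were missing for 11. The ISRE word was searched on both strands as GAAA, any 2 bases and GAAA (TTTC, any 2 bases and TTTC on the other strand), and the GAS word as TTC, any 3 bases and GAA, which reads the same on both strands. The ISRE word was in a window of 18 of the 32 members (56.2%) and of 3.99% of the 27025 genes in the table. The GAS word was in 11 of 32 (34.4%) and in 9.55% of all genes, and 7 members held both. All 6 GBP and IRG genes with a window held the ISRE word, as did 4 of 7 IFIT, OAS and MX genes and 8 of 19 remaining members. The GAS word was in 3 of those 6, 2 of those 7 and 6 of those 19. A match is a description of letters and not a bound site, and a missing match says only that these letters are not in this window.

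The 250 bases before the start follow 5′ to 3′ on the strand of the gene, with every ISRE and GAS word in capitals. In Isg15 (chr4:156200819-156201068, minus strand) 3 overlapping ISRE words start between positions -78 and -66. In Ifit1 (chr19:34640639-34640888, plus strand) ISRE words start at -104 and -85, and in its neighbour Ifit2 (chr19:34550444-34550693, plus strand, upstream of the first of its 2 listed starts) there is a GAS word at -241 and no ISRE word. Igtp (chr11:58199306-58199555, plus strand) and Irgm2 (chr11:58214727-58214976, plus strand) carry a GAS word at -45 and -75 and an ISRE word at -34 and -64, side by side in both. Irgm1 (chr11:48871421-48871670, minus strand) has overlapping ISRE words at -30 and -24.
Isg15: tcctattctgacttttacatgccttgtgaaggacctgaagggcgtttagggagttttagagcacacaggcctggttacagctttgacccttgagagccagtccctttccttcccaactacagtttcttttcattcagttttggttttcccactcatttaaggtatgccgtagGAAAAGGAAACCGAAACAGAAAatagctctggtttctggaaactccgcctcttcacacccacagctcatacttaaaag
Ifit1: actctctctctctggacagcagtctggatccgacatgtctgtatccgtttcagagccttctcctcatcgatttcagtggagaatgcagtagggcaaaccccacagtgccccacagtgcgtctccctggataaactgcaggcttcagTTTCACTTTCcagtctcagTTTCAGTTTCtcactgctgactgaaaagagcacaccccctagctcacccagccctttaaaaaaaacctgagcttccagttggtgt
Ifit2: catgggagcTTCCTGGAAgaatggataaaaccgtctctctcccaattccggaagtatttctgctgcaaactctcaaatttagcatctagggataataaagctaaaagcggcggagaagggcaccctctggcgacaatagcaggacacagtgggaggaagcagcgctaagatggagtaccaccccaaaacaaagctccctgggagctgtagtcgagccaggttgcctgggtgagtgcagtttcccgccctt
Igtp: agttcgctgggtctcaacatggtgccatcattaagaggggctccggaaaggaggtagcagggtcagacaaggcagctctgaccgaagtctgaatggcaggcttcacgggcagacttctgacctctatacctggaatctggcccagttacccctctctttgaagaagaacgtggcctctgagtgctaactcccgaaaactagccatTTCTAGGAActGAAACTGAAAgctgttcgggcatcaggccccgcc
Irgm2: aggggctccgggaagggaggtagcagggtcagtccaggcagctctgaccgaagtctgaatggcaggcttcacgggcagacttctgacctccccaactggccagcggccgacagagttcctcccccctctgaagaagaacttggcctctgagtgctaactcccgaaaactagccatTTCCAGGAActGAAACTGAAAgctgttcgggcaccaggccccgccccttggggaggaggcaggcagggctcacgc
Irgm1: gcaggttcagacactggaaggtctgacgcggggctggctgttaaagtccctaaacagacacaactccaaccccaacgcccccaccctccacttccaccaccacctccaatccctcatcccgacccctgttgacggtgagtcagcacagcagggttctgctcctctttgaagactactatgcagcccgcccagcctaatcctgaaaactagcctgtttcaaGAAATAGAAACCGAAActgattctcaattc

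Of the 43 members, 39 passed the count filter and were tested, and 4 did not (Oas2, Mx1, Gbp4 and Ifitm1, none of which exceeded 17 counts in a library). Another 6 members (Oas1a, Oas3, Mx2, Iigp1, Rsad2 and Cmpk2) passed with fewer than 4 ROSA libraries at the cutoff of 0.291 CPM, so they owe their place partly to the BMPR2 DELX libraries. With the edgeR quasi-likelihood test and Benjamini-Hochberg adjustment over 14887 genes, 18 members rose in BMPR2 DELX, where 3.96% of all genes did and 9.1% changed in either direction. At an unadjusted p below 0.05 there were 25 members, against 26.3% of all genes. None fell (0 of 39, with 1 at an unadjusted p below 0.05, and 0 by DESeq2 and by limma voom), where 5.15% of all genes fell. Another 21 did not pass. The BMPR2 DELX libraries lay wholly above the ROSA libraries for 22 members, against 8.32% of all genes. They lay wholly below for 0 members, against 9.65% of all genes. The log2 fold changes ran from -0.28 (Ifit2) to 1.88 (Iigp1), 35 were positive and 4 negative, and their median was 0.66 beside 0.0045 for all genes. Among the 18 that rose, 6 were more than 2-fold higher and 14 more than 1.5-fold higher.

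**Figure D1:**
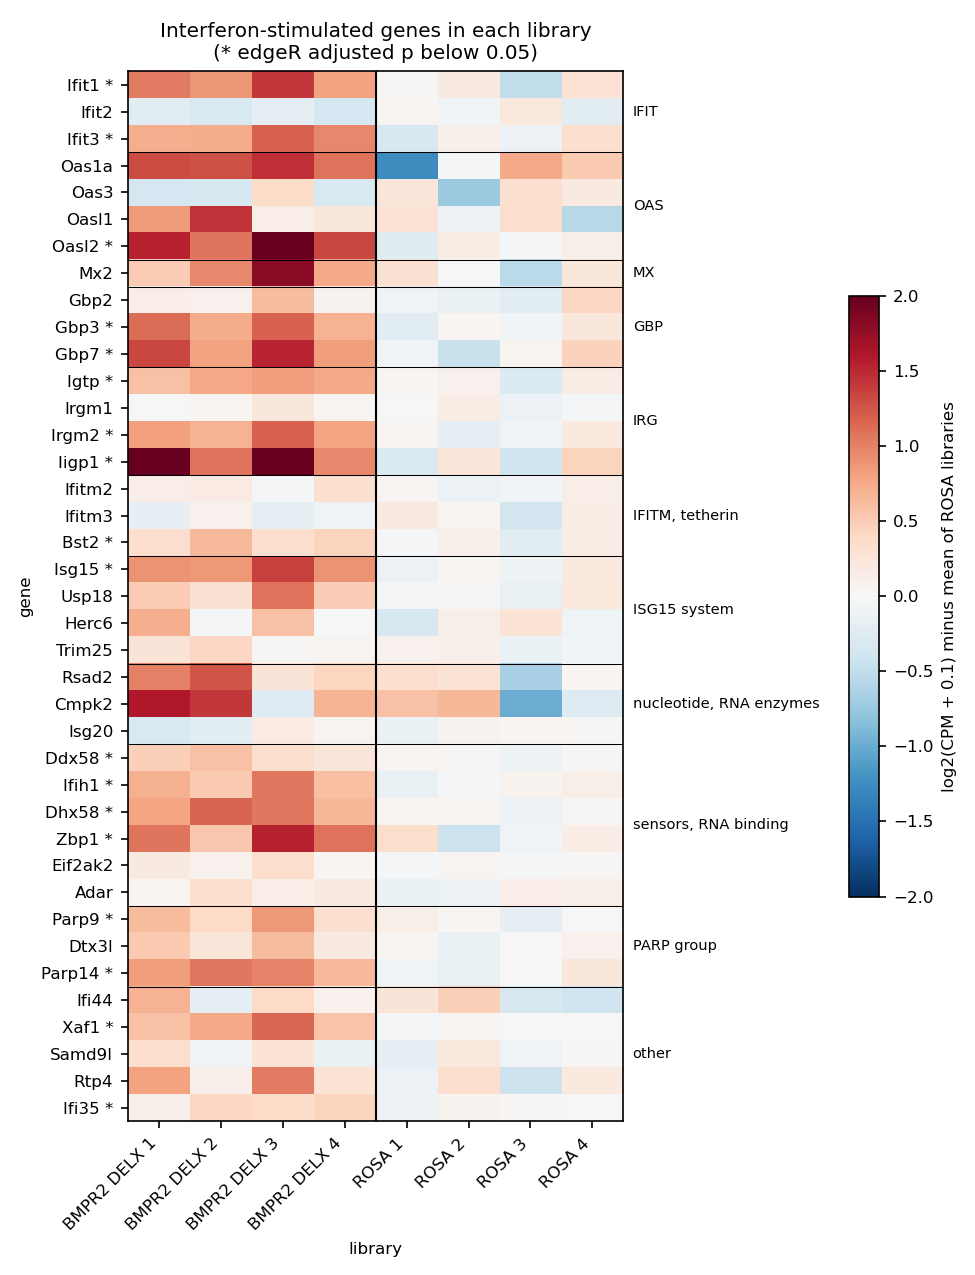
Each row is a tested interferon-stimulated gene and each column a library. Colour gives log2(CPM + 0.1) minus the mean of the 4 ROSA libraries, on a scale that stops at a difference of 2 either way, and an asterisk marks an edgeR adjusted p below 0.05. Red fills the BMPR2 DELX columns for most genes, BMPR2 DELX 3 is the highest of the 8 libraries for 23 of 39 genes, and Ifit2 and Ifitm3 show no such block.

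The IFIT genes lie side by side on chromosome 19, and their proteins bind viral RNA and hinder its translation. Ifit1 (ENSMUSG00000034459, chr19:34640871-34650009) had 5.27, 4.74, 6.90 and 4.47 CPM in BMPR2 DELX 1 to 4 and 2.58, 2.89, 1.76 and 3.09 CPM in ROSA 1 to 4. Every BMPR2 DELX library was above every ROSA library, with BMPR2 DELX 3 highest and ROSA 3 lowest. Means were 5.34 ± 1.09 and 2.58 ± 0.585 CPM (SD, n = 4), a log2 fold change of 1.04 ± 0.21 SE with an edgeR adjusted p of 0.017. Ifit3 (chr19:34583531-34588731) rose as well, from 1.15, 1.58, 1.33 and 1.87 CPM in ROSA to 2.49, 2.51, 3.43 and 2.95 CPM in BMPR2 DELX (0.94 ± 0.20, edgeR adjusted p 0.022). Its groups did not overlap, but the call was lost when BMPR2 DELX 3 was left out (adjusted p 0.052), and likewise for ROSA 1 (0.054) and ROSA 2 (0.057). Ifit3 shares 97.8% of 1700 transcript bases with Ifit3b, so the split of reads between them is uncertain, and Ifit3b had 1.13 ± 0.353 and 0.656 ± 0.0358 CPM (0.78 ± 0.25, adjusted p 0.085).

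Ifit2 (chr19:34550694-34576419) went the other way among its neighbours. It had 19.9, 18.7, 20.5 and 18.1 CPM in BMPR2 DELX and 23.9, 22.4, 27.1 and 20.2 CPM in ROSA. The highest BMPR2 DELX value just exceeded the lowest ROSA value, and the log2 fold change of -0.28 ± 0.10 did not pass (edgeR adjusted p 0.099). Per kilobase of transcript, Ifit2 was also the most abundant IFIT gene, at 5.44 CPM per kb over the 8 libraries beside 1.49 for Ifit1 and 1.24 for Ifit3.

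Several OAS proteins make 2′-5′ oligoadenylates that switch on RNase L. The OAS-like proteins Oasl1 and Oasl2 belong to the same family and carry ubiquitin-like domains. Oasl2 (ENSMUSG00000029561, chr5:114896936-114912234) had 3.53, 2.54, 5.34 and 3.06 CPM in BMPR2 DELX and 0.963, 1.29, 1.13 and 1.25 CPM in ROSA. The groups were far apart and BMPR2 DELX 3 was again the highest library. The log2 fold change was 1.63 ± 0.25 (edgeR adjusted p 0.0061), and the call was kept without each library in turn. Oas1a (chr5:120896256-120907521) had 2.32, 2.26, 2.58 and 1.97 CPM against 0.311, 0.849, 1.56 and 1.31 CPM. The groups did not overlap, but ROSA 1 lay well under the other ROSA libraries and the difference did not pass (1.18 ± 0.37, edgeR adjusted p 0.078). It matches Oas1g over 97.6% of 1861 bases, a gene with at most 2 counts in any library. Oasl1 had 2.49, 3.78, 1.47 and 1.56 CPM against 1.65, 1.24, 1.73 and 0.876 CPM, overlapping groups in which BMPR2 DELX 1 and 2 stood high (0.76 ± 0.34, adjusted p 0.19). Oas3 was near the filter, at 0.196, 0.197, 0.382 and 0.201 CPM against 0.342, 0.121, 0.366 and 0.321 CPM (-0.21 ± 0.42, adjusted p 0.79), and Oas2 had at most 13 counts in a library.

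The MX proteins are dynamin-like GTPases that trap viral components. Mx1 was barely counted, with at most 2 counts in any library. Mx2 (chr16:97535308-97560900) had 0.589, 0.846, 1.59 and 0.715 CPM in BMPR2 DELX and 0.497, 0.388, 0.233 and 0.467 CPM in ROSA. Its groups did not overlap, though BMPR2 DELX 1 was close to ROSA 1, and the difference did not pass (1.22 ± 0.37, edgeR adjusted p 0.069). Of the 8 tested IFIT, OAS and MX genes, 3 rose (Ifit1, Ifit3 and Oasl2), 0 fell and 5 did not pass, where 3.96% of all genes rose and 5.15% fell. DESeq2 called 5 of them higher, adding Oas1a and Mx2, and 7.33% of all genes higher.

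Guanylate-binding proteins (GBP) are large GTPases that attack the membranes around intracellular microbes. Gbp3 (chr3:142560026-142573209) had 5.20, 4.00, 5.46 and 3.89 CPM in BMPR2 DELX and 2.02, 2.43, 2.26 and 2.77 CPM in ROSA. All 4 BMPR2 DELX libraries were above all 4 ROSA libraries (0.96 ± 0.17, edgeR adjusted p 0.011), also without each library in turn. Gbp7 (chr3:142530342-142550149) had 7.13, 4.88, 8.13 and 5.01 CPM against 2.64, 1.99, 2.86 and 3.82 CPM. BMPR2 DELX 1 and 3 were highest and the groups did not overlap, though 637 of its bases are identical in the predicted gene Gm43802, so that the split of reads is uncertain (1.15 ± 0.23, edgeR adjusted p 0.019), but without ROSA 1 or ROSA 2 the adjusted p was 0.05 or 0.051. Gbp2, the most abundant GBP gene per kilobase at 12.8 CPM per kb, did not pass. It had 32.0, 31.1, 45.2 and 30.7 CPM against 27.8, 26.6, 25.4 and 38.9 CPM, so that ROSA 4 lay above 3 of the BMPR2 DELX libraries (0.23 ± 0.17, adjusted p 0.42). Gbp4 had at most 17 counts and was not tested.

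Immunity-related GTPases (IRG) load onto the same kind of vacuole. Irgm2 (chr11:58199618-58222782) had 8.61, 7.89, 11.1 and 8.47 CPM in BMPR2 DELX and 4.97, 4.32, 4.59 and 5.57 CPM in ROSA. The groups were apart by more than 2 CPM, with BMPR2 DELX 3 highest (0.89 ± 0.14, edgeR adjusted p 0.0069). Igtp (chr11:58199556-58207591) had 3.04, 3.47, 3.64 and 3.42 CPM against 2.05, 2.11, 1.63 and 2.22 CPM. Its BMPR2 DELX libraries were close to each other and all above ROSA (0.76 ± 0.15, edgeR adjusted p 0.018). Both calls were kept without each library in turn. The annotated spans of Igtp and Irgm2 overlap on the same strand and share 165 identical transcript bases, so the split between these 2 genes is uncertain. Their windows above carry the same arrangement of a GAS word next to an ISRE word.

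Iigp1 (chr18:60376027-60392634) had the largest fitted fold change of the members from some of the lowest counts. It had 1.34, 0.648, 1.41 and 0.581 CPM in BMPR2 DELX and 0.186, 0.315, 0.166 and 0.379 CPM in ROSA, with at most 48 counts in a library. BMPR2 DELX 1 and 3 were high, BMPR2 DELX 2 and 4 lower, and all were above ROSA (1.88 ± 0.41, edgeR adjusted p 0.023). The call was lost without BMPR2 DELX 1, BMPR2 DELX 3 or ROSA 3 (adjusted p 0.052 each), ROSA 2 (0.06) or ROSA 1 (0.066). Irgm1 (chr11:48861968-48871683), which restrains the other IRG proteins, did not pass. Its levels were 54.6, 55.8, 63.7 and 55.9 CPM against 54.5, 59.9, 50.2 and 52.7 CPM, overlapping groups at the highest level of the IRG genes (9.62 CPM per kb) with a log2 fold change of 0.08 ± 0.08 (adjusted p 0.53). Its window holds the ISRE word and no GAS word. Of the 7 tested GBP and IRG genes, 5 rose, 0 fell and 2 did not pass, beside the same shares of 3.96% and 5.15% over all genes. Among the 5 that rose, Iigp1 had passed the count filter with only 2 ROSA libraries at the cutoff.

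**Figure D2:**
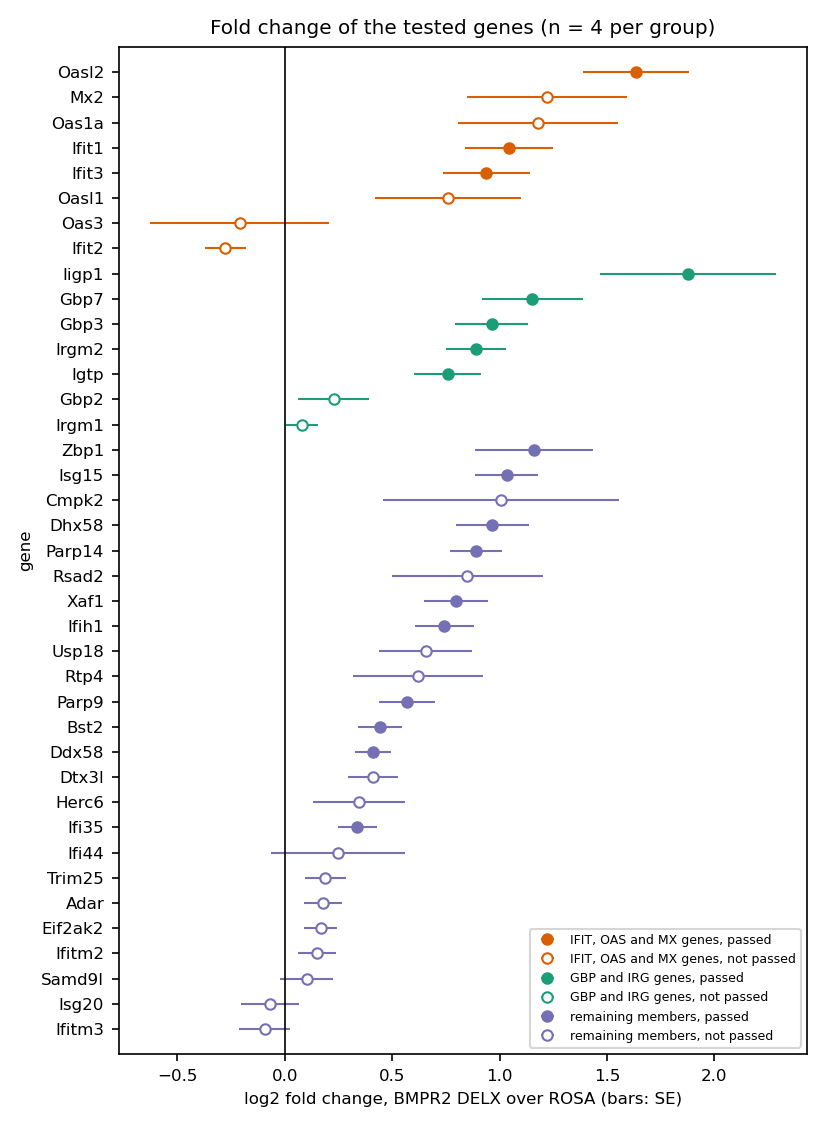
The horizontal axis gives the log2 fold change of BMPR2 DELX over ROSA with its standard error (n = 4 per group), 1 gene per line, in 3 colours for the IFIT, OAS and MX genes, the GBP and IRG genes and the remaining members. Filled points passed an edgeR adjusted p of 0.05. Both first classes hold genes near or above 1 and genes near or under 0.25, and no filled point lies left of 0.

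Set side by side, the 2 classes differed little in size. The median log2 fold change was 0.99 over the 8 tested IFIT, OAS and MX genes and 0.89 over the 7 tested GBP and IRG genes, beside 0.43 over the 24 tested remaining members. In each of the first 2 classes, BMPR2 DELX lay wholly above ROSA for 5 genes, against 8.32% of all genes. These include Oas1a, Mx2 and Iigp1, which passed the filter with fewer than 4 ROSA libraries at the cutoff. The medians and the averages below also include them and Oas3, which passed likewise, and were not repeated without these members as a set. With a filter of 1 CPM in 4 libraries, the medians of the first 2 classes were 0.99 and 0.82 in the same order. That filter dropped Oas3, Mx2 and Iigp1 and kept Oas1a. Averaged over its tested genes, the log2 CPM of the IFIT, OAS and MX class was 1.24, 1.28, 1.62 and 1.12 in BMPR2 DELX 1 to 4 and 0.43, 0.47, 0.61 and 0.67 in ROSA 1 to 4. For the GBP and IRG genes it was 3.04, 2.77, 3.27 and 2.76 against 2.06, 2.12, 1.98 and 2.42. In both classes every BMPR2 DELX library was above every ROSA library and BMPR2 DELX 3 was highest. The group means differed by 0.77 and by 0.81 log2 units, and the difference between the classes was not tested. Both classes also hold a member at over 20 CPM that did not pass, namely Ifit2 in the first and Gbp2 and Irgm1 in the second.

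**Figure D3:**
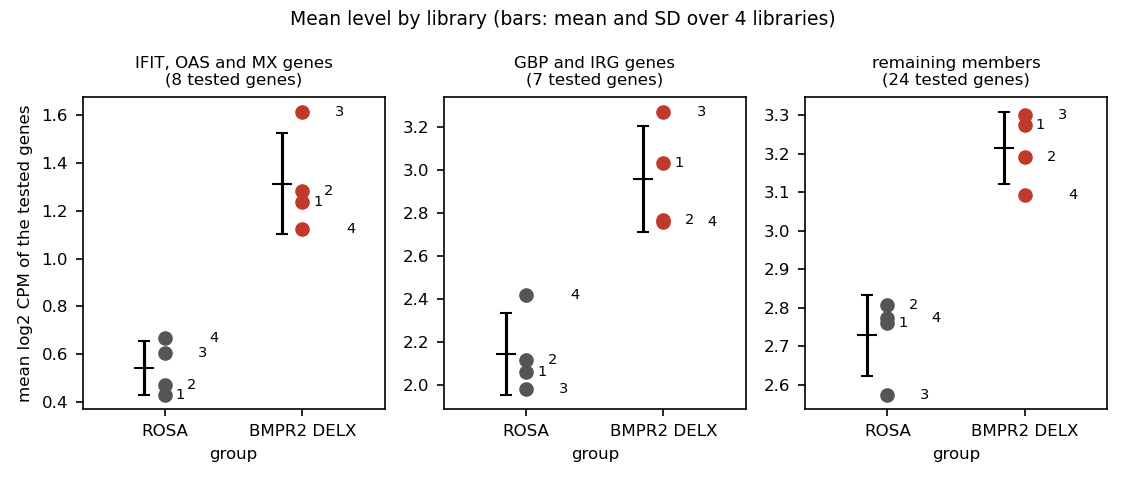
Points are libraries, numbered by replicate, and the vertical axis is the log2 CPM averaged over the tested genes of a class, with bars for the mean and SD over 4 libraries. The axes do not start at 0 and differ between panels. The BMPR2 DELX libraries lie between 1.12 and 1.62 for IFIT, OAS and MX genes and between 2.76 and 3.27 for GBP and IRG genes, above all ROSA libraries in each panel.

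Of the 3 tested membrane proteins that block virus entry or release, 1 rose, beside 3.96% of all genes. The abundant IFITM genes did not pass. Ifitm3, which blocks viral fusion in endosomes, was the most abundant member per kilobase at 216 CPM per kb. It had 134, 159, 132 and 141 CPM in BMPR2 DELX and 170, 153, 116 and 165 CPM in ROSA, with ROSA holding both the highest and the lowest value (-0.09 ± 0.12, edgeR adjusted p 0.65). Ifitm2 had 34.9 ± 3.48 and 31.5 ± 2.36 CPM and did not pass (0.15 ± 0.09, adjusted p 0.30), and Ifitm1 had at most 4 counts. Bst2 (tetherin, chr8:71534255-71537456), which ties budding virions to the cell surface, had 26.4, 33.0, 26.5 and 28.6 CPM against 20.5, 22.5, 17.9 and 23.1 CPM. Its groups did not overlap and it rose (0.44 ± 0.10, edgeR adjusted p 0.028). The Bst2 call was lost without BMPR2 DELX 2 (adjusted p 0.07), BMPR2 DELX 4 (0.055), ROSA 1 (0.072), ROSA 2 (0.058) or ROSA 3 (0.055).

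Isg15 is a ubiquitin-like protein that is joined to other proteins during an interferon response, and it was among the most separated members. Isg15 (ENSMUSG00000035692, chr4:156199424-156200818) had 8.12, 7.98, 11.3 and 8.13 CPM in BMPR2 DELX and 3.95, 4.42, 3.99 and 4.96 CPM in ROSA. The lowest BMPR2 DELX library was 3 CPM above the highest ROSA library (1.03 ± 0.15, edgeR adjusted p 0.0046), and the call was kept without each library in turn. Uba7, the enzyme that activates Isg15 and a gene outside the 43, had 5.39 ± 0.724 and 2.59 ± 0.494 CPM and also rose (1.05 ± 0.17, edgeR adjusted p 0.0086). Usp18, the protease that removes Isg15, had 2.00, 1.72, 3.02 and 1.97 CPM against 1.34, 1.33, 1.23 and 1.61 CPM. Its groups did not overlap, and it did not pass (0.66 ± 0.22, adjusted p 0.086). The ligases did not pass either. Herc6, the main mouse Isg15 ligase, had 6.02, 3.50, 5.49 and 3.64 CPM against 2.89, 3.93, 4.39 and 3.41 CPM (0.35 ± 0.21, adjusted p 0.34), and Trim25 had 61.6 ± 7.97 and 54.0 ± 4.13 CPM (0.19 ± 0.10, adjusted p 0.24).

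The nucleotide and RNA degrading enzymes held 3 members, and 0 of them passed, where 9.1% of all genes did. Of the 3, 1 had an unadjusted edgeR p below 0.05 (Rsad2), and 0 were called by DESeq2 or limma voom.
Rsad2 (viperin), which makes a chain-terminating nucleotide, had 0.949, 1.16, 0.528 and 0.603 CPM in BMPR2 DELX and 0.559, 0.534, 0.233 and 0.438 CPM in ROSA (0.85 ± 0.35, adjusted p 0.16). Cmpk2, its neighbour on chromosome 12 and a nucleotide kinase, had 1.11, 0.959, 0.235 and 0.536 CPM against 0.497, 0.534, 0.0998 and 0.233 CPM (1.01 ± 0.55, adjusted p 0.27). In both genes libraries 1 and 2 were high and library 3 was the lowest of its group, in BMPR2 DELX as in ROSA. Isg20, an RNA exonuclease, had 5.61 ± 0.902 and 5.88 ± 0.372 CPM (-0.07 ± 0.14, adjusted p 0.78).

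Of 6 sensors of foreign nucleic acid and RNA binding enzymes, 4 rose and 2 did not pass, where 3.96% of all genes rose. The RIG-I family detects viral RNA in the cytosol, and all 3 of its genes rose. Ddx58 (RIG-I, chr4:40203773-40239828) had 49.6, 53.9, 44.8 and 42.4 CPM in BMPR2 DELX and 37.3, 36.4, 33.3 and 36.3 CPM in ROSA, without overlap (0.41 ± 0.08, edgeR adjusted p 0.018). Ifih1 (MDA5, chr2:62595798-62646255) had 8.71, 7.64, 11.0 and 8.04 CPM against 4.72, 5.14, 5.52 and 5.75 CPM, with the highest value in BMPR2 DELX 3 (0.74 ± 0.14, edgeR adjusted p 0.013). Dhx58 (LGP2, chr11:100694884-100704271), which tunes the other members of the family, had 2.88, 3.78, 3.49 and 2.66 CPM against 1.68, 1.70, 1.50 and 1.66 CPM. The 4 ROSA values were nearly equal and the log2 fold change was 0.97 ± 0.17 (edgeR adjusted p 0.0105). All 3 calls were kept without each library in turn, and the fold change was smallest for Ddx58, the most abundant of the family per kilobase at 5.92 CPM per kb.

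Zbp1 (chr2:173206612-173218923), a sensor of Z-form nucleic acid that can start cell death, had 1.96, 1.33, 2.76 and 1.99 CPM in BMPR2 DELX and 1.15, 0.631, 0.831 and 0.992 CPM in ROSA. The groups did not overlap and it rose (1.16 ± 0.27, edgeR adjusted p 0.030). Its call was lost without BMPR2 DELX 1 (adjusted p 0.056), BMPR2 DELX 3 (0.066), BMPR2 DELX 4 (0.057), ROSA 2 (0.086) or ROSA 3 (0.062). The abundant RNA binding enzymes did not pass. Eif2ak2 (PKR), the kinase that stops translation, had 49.6 ± 5.12 and 44.2 ± 1.36 CPM (0.17 ± 0.08, adjusted p 0.20). Adar, which converts adenosine to inosine in RNA, had 47.3 ± 4.08 and 41.9 ± 4.17 CPM (0.18 ± 0.09, adjusted p 0.24).

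The ADP-ribosyltransferase group lies together on chromosome 16 and gave the member with the smallest p-value. Parp14 (chr16:35832874-35871544) had 13.1, 15.2, 14.6 and 11.6 CPM in BMPR2 DELX and 6.87, 6.62, 7.28 and 8.55 CPM in ROSA. The lowest BMPR2 DELX library was 3 CPM above the highest ROSA library, here with BMPR2 DELX 2 and not BMPR2 DELX 3 on top (0.89 ± 0.12, edgeR adjusted p 0.0037), and the call was kept without each library in turn. Parp9 (chr16:35938470-35972605) had 16.7, 14.3, 19.8 and 13.5 CPM against 11.7, 11.1, 9.61 and 10.8 CPM and rose (0.57 ± 0.13, edgeR adjusted p 0.026). The Parp9 call was lost without BMPR2 DELX 1 (adjusted p 0.056), BMPR2 DELX 3 (0.05), ROSA 2 (0.068) or ROSA 3 (0.059). Dtx3l (chr16:35926511-35939151), the ubiquitin ligase that partners with Parp9, starts opposite it on the other strand. It had 15.3, 12.6, 16.6 and 12.0 CPM against 10.9, 9.68, 10.7 and 11.3 CPM, groups that did not overlap, and it did not pass (0.41 ± 0.12, adjusted p 0.057). Parp9 and Dtx3l ranked the 4 BMPR2 DELX libraries in the same order, with 3 highest and 4 lowest.

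Of the other 5 members, 2 rose, beside 3.96% of all genes. Xaf1 (chr11:72301629-72313733), which favours apoptosis, had 5.96, 6.68, 8.84 and 5.88 CPM in BMPR2 DELX and 3.82, 4.03, 3.92 and 3.94 CPM in ROSA. The ROSA libraries were nearly equal and all BMPR2 DELX libraries lay above them (0.80 ± 0.15, edgeR adjusted p 0.013), also without each library in turn. Ifi35 (chr11:101448407-101458698) had 16.6, 20.6, 19.9 and 21.1 CPM against 14.4, 16.3, 15.7 and 15.5 CPM. BMPR2 DELX 1 was only just above ROSA 2 (0.34 ± 0.09, edgeR adjusted p 0.047), and the Ifi35 call was lost in every fit without 1 library except the one without BMPR2 DELX 1, with adjusted p from 0.079 to 0.11. Rtp4 (0.62 ± 0.30, adjusted p 0.22), Ifi44 (0.25 ± 0.31, adjusted p 0.66) and the translation inhibitor Samd9l (0.10 ± 0.12, adjusted p 0.65) did not pass.

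Members of lower level had the larger fold changes. A border of 10 CPM, the mean over all 8 libraries, was chosen after the values were seen. Of the 24 tested members under it, 13 rose and the median log2 fold change was 0.91, whereas 5 of the 15 members above it rose and their median was 0.19. The lower band holds the 6 members that passed the filter with fewer than 4 ROSA libraries, and without them 12 of 18 rose with a median of 0.84. Over all genes tested, 3.65% of 5888 genes under 10 CPM and 4.16% of 8999 genes above it rose, with medians of 0.04 and -0.0058. Parp14 was the only member above the border with a log2 fold change over 0.57.

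**Figure D4:**
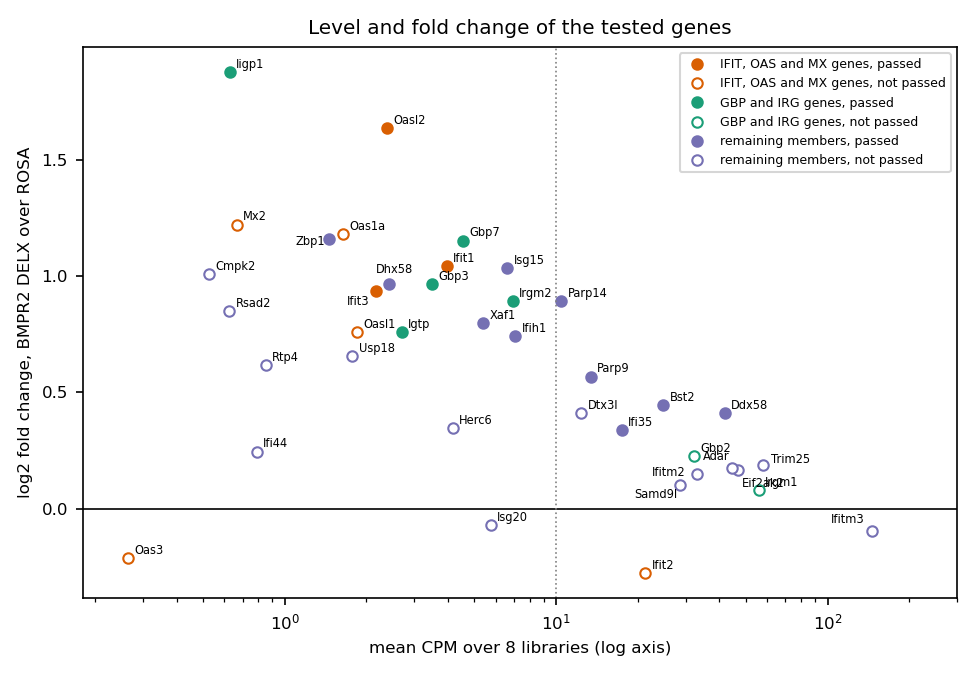
The horizontal axis is the mean CPM over the 8 libraries on a log scale, the vertical axis the log2 fold change of BMPR2 DELX over ROSA, and filled points passed an edgeR adjusted p of 0.05. The dotted line marks 10 CPM. The 24 genes to its left have a median of 0.91 and the 15 genes to its right a median of 0.19.

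Upstream of the members, almost no interferon was counted. Of 21 interferon genes, 17 had 0 counts in all 8 libraries, Ifnb1 (interferon beta) and Ifng (interferon-gamma) among them, and the highest count of any was 5 in a library. Counting error alone leaves room for 3 counts behind a 0, or 0.0687 to 0.104 CPM depending on the library. The receptors did not pass. Ifnar1 had 78.4, 78.2, 78.8 and 79.3 CPM in BMPR2 DELX and 70.9, 75.2, 67.9 and 65.4 CPM in ROSA, without overlap (0.17 ± 0.06, adjusted p 0.094), and Ifnar2 had 27.3 ± 2.31 and 22.1 ± 2.15 CPM (0.31 ± 0.09, adjusted p 0.064). For the interferon-gamma receptor the means lay the other way, with 41.0 ± 3.03 and 44.4 ± 1.76 CPM for Ifngr1 (-0.11 ± 0.07, adjusted p 0.32) and 69.5 ± 4.16 and 74.0 ± 2.60 CPM for Ifngr2 (-0.09 ± 0.06, adjusted p 0.38).

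Among 21 tested genes of interferon receptors and signalling, 4 rose and 0 fell, with a median log2 fold change of 0.18, where 3.96% of all genes rose. DESeq2 called 8 higher, and 7.33% of all genes. Those that rose include Stat2 and Irf9, which act in the type I complex, and Irf7, an interferon-induced transcription factor. Stat2 had 21.0, 24.4, 24.8 and 20.1 CPM in BMPR2 DELX and 10.3, 9.34, 14.8 and 15.5 CPM in ROSA (0.86 ± 0.17, edgeR adjusted p 0.017). Irf9 had 17.1, 16.9, 20.9 and 16.1 CPM against 11.7, 10.3, 11.5 and 13.4 CPM (0.60 ± 0.11, edgeR adjusted p 0.013). Neither gene's groups overlapped, and both calls were kept without each library in turn. Irf7 had 4.97 ± 0.504 and 2.70 ± 0.606 CPM (0.88 ± 0.17, edgeR adjusted p 0.017), a call lost without ROSA 2 (adjusted p 0.051). Irf1, the transcription factor most used downstream of interferon-gamma, had 12.0, 12.8, 13.5 and 10.5 CPM against 6.93, 6.43, 8.91 and 10.7 CPM, overlapping at ROSA 4 (0.57 ± 0.16, adjusted p 0.057).

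**Figure D5:**
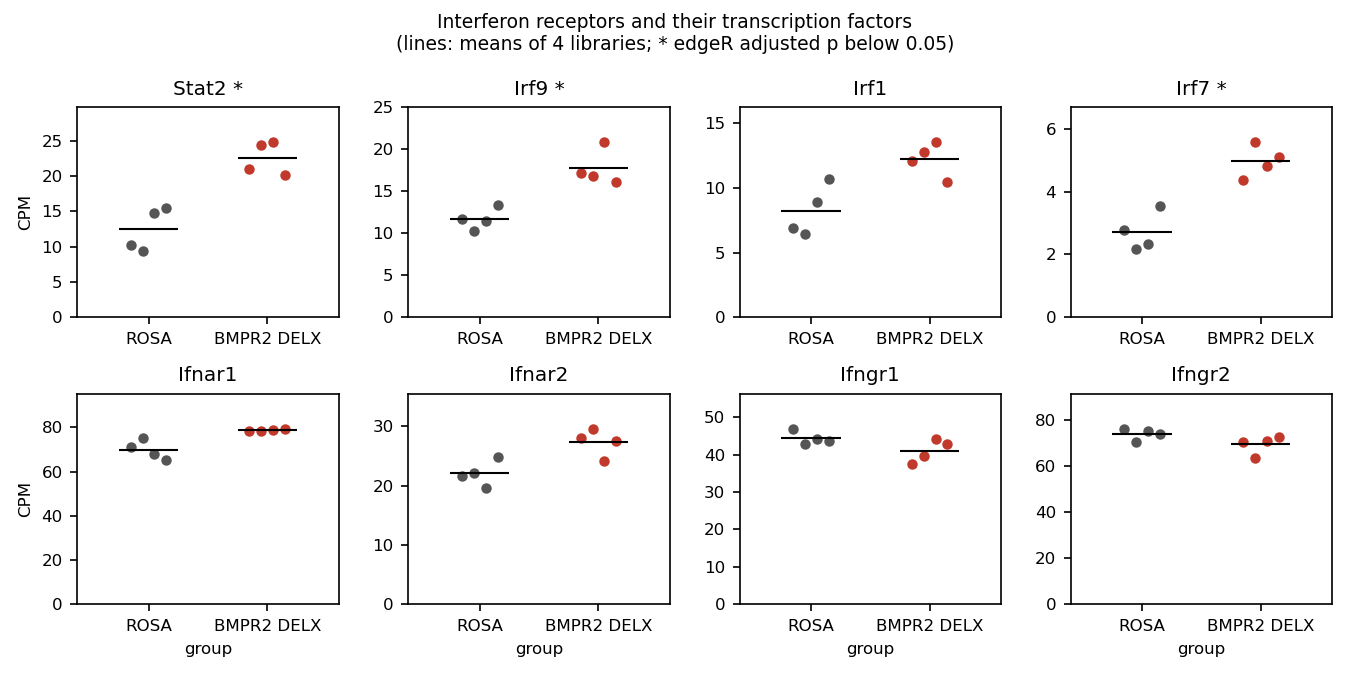
Each panel gives 1 gene in CPM from 0, with a point for each library in replicate order and a line at the mean of 4 libraries, and an asterisk marks an edgeR adjusted p below 0.05. Stat2, Irf9 and Irf7 carry an asterisk, whereas the 4 receptor genes and Irf1 do not.

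Adaptors that pass on signals from RNA and DNA sensors held 18 tested genes. By edgeR 0 of them were called (3 at an unadjusted p below 0.05), 0 by limma voom and 2 by DESeq2, and their median log2 fold change was 0.04. Of 67 tested further interferon-stimulated genes outside the 43, 15 rose, 2 fell and 50 did not pass, with a median of 0.29, where 3.96% of all genes rose and 5.15% fell. The smallest p-values were those of the immunoproteasome subunit Psmb8 (1.17 ± 0.15, edgeR adjusted p 0.0033), the peptide transporter subunit Tap1 (0.84 ± 0.13, adjusted p 0.0063), the Schlafen family member Slfn5 (0.95 ± 0.15, adjusted p 0.0070) and Uba7, given above. Partners of Psmb8 and Tap1, chosen after their values were seen, are Psmb9 (1.29 ± 0.25, adjusted p 0.017) and Tap2 (0.39 ± 0.10, adjusted p 0.033), and both rose. The Tap2 call was lost without BMPR2 DELX 2, 3 or 4 or ROSA 1, 2 or 3 (adjusted p from 0.065 to 0.094). The 2 that fell were abundant, B2m, the light chain of class I molecules, with 219 ± 11.7 and 264 ± 10.5 CPM (-0.27 ± 0.06, edgeR adjusted p 0.028), and the lectin Lgals9 (-0.29 ± 0.08, adjusted p 0.047). The B2m call was lost without BMPR2 DELX 2, 3 or 4 or ROSA 1, 2 or 4 (adjusted p from 0.051 to 0.098) and with the replicate number as a block. The Lgals9 call was lost in every fit without 1 library except that without BMPR2 DELX 4 (adjusted p from 0.058 to 0.14), with the block, with upper-quartile factors (0.071) and with unstranded counts (0.060).

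Members did not all rank the BMPR2 DELX libraries in the same way. The 2 highest were BMPR2 DELX 1 and 3 for 18 of the 39 tested members (22.0% of all genes), among them Ifit1, Oasl2, Gbp2, Gbp3, Gbp7, Irgm2, Iigp1, Usp18, Parp9 and Dtx3l. They were BMPR2 DELX 1 and 2 for 5 members (18.9% of all genes), namely Oasl1, Trim25, Rsad2, Cmpk2 and Ddx58, and BMPR2 DELX 2 and 3 for 5 (7.57%), namely Mx2, Igtp, Dhx58, Parp14 and Xaf1. BMPR2 DELX 2 and 4 led for 5 (21.7%), BMPR2 DELX 3 and 4 for 6 (22.4%), and BMPR2 DELX 1 and 4 for 0 (7.46%). BMPR2 DELX 3 was the highest BMPR2 DELX library for 24 of the 39 members, and for 24.0% of all genes. Of the 8 libraries it was the highest for 23 members and for 13 of the 18 that rose. For those 18 the groups did not overlap, so the highest library could only be a BMPR2 DELX library.

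Markers of other cell types varied between the same libraries, and their part in these results was not tested. Macrophage and monocyte markers summed to 51.3, 40.3, 75.2 and 53.4 CPM in BMPR2 DELX 1 to 4 and to 28.1 to 39.6 CPM in ROSA. Most of the sum was Csf1r and Lyz2, at 38.1 and 19.2 CPM in BMPR2 DELX 3. Csf1r, Lyz2, Mpeg1 and C1qa were highest in BMPR2 DELX 3. The other listed markers peaked elsewhere, such as Cd68 in BMPR2 DELX 2 and Adgre1, C1qb, C1qc, Fcer1g and Tyrobp in BMPR2 DELX 1. All of these were next highest in BMPR2 DELX 3, those other than Cd68 at under 1 CPM. C1qc, for example, had 0.622, 0.169, 0.558 and 0.246 CPM in BMPR2 DELX and 0.0311, 0.121, 0.133 and 0.0876 CPM in ROSA. Cd163 and Ccr2 went the other way, with 0 CPM in BMPR2 DELX 1 and 3. Of 18 listed, 13 stayed under 1 CPM in every library and 7 were tested, of which Cd68, a lysosomal protein of phagocytes, rose (0.72 ± 0.16, edgeR adjusted p 0.024, lost without BMPR2 DELX 2 at 0.065 or BMPR2 DELX 3 at 0.05) and 6 did not pass. Lyz2, the lysozyme of myeloid cells, had 13.5, 5.36, 19.2 and 8.11 CPM in BMPR2 DELX, so that libraries 1 and 3 were high, and 1.99, 3.59, 5.79 and 4.87 CPM in ROSA (1.50 ± 0.45, adjusted p 0.074). Adgre1, which defines mouse macrophages, had at most 13 counts, and the pan-leukocyte gene Ptprc at most 18 counts in any library. Lymphocyte and natural killer cell markers summed to 6.34 to 8.43 CPM in BMPR2 DELX and 7.52 to 14.3 CPM in ROSA, nearly all of it Trac, the T cell receptor alpha constant gene, and the other 18 of 19 stayed under 1 CPM in every library. Dendritic cell and granulocyte markers summed to 8.54 to 11.6 and 8.55 to 11.2 CPM, most of it Zbtb46, with 11 of 13 under 1 CPM in every library. Kit, a receptor of mast cells and other cells, had 3.24, 2.34, 1.14 and 1.01 CPM against 0.994, 0.413, 0.466 and 0.350 CPM and rose (1.79 ± 0.47, edgeR adjusted p 0.044), a call lost without BMPR2 DELX 1 or 2 or ROSA 2, 3 or 4 (adjusted p from 0.083 to 0.12). Epithelial markers summed to 35.1, 54.6 and 56.7 CPM in BMPR2 DELX 1 to 3, to less than any other library in BMPR2 DELX 4, and to 32.8 to 49.2 CPM in ROSA, with 4 of 11, Epcam and Cdh1 among them, under 1 CPM in every library. Of the 7 tested, Pax8, a kidney and thyroid transcription factor, had 0.884, 1.92, 4.49 and 0.290 CPM against 0.218, 0.315, 0.0998 and 0.0584 CPM and rose (3.38 ± 0.88, edgeR adjusted p 0.047), although the groups overlapped and the call was lost in every fit without 1 library except that without BMPR2 DELX 4 (adjusted p from 0.059 to 0.12). The other 6 did not pass, and of these Krt8 had 2.81, 5.67, 11.2 and 0.939 CPM against 1.62, 0.340, 0.0998 and 0.292 CPM, again with BMPR2 DELX 3 highest (3.14 ± 0.95, adjusted p 0.080). The endothelial gene Pecam1 had 289, 284, 53.5 and 146 CPM in BMPR2 DELX and 224, 317, 109 and 197 CPM in ROSA, so that libraries 1 and 2 were high and library 3 lowest in both groups, as for Cmpk2 and Rsad2.

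Single libraries changed how many members passed, but seldom a direction. Without 1 library, between 11 and 17 members rose, and 11 of the 18 passed in all 8 such fits (Ifit1, Oasl2, Gbp3, Igtp, Irgm2, Isg15, Ddx58, Ifih1, Dhx58, Parp14 and Xaf1). Without ROSA 2 the number was 11, and over all genes 213 were called higher, against 589 with all libraries. The log2 fold changes of all 18 stayed positive in that fit. Leaving out ROSA 1 and ROSA 2 together, which earlier results of these data showed to differ from the other ROSA libraries in early response genes, left 0 members called by edgeR. The smallest adjusted p was then 0.0525, 24 members had an unadjusted p below 0.05, and 36 of 39 log2 fold changes were positive. All genes called numbered 172 in that fit, against 1355 with all libraries. With ROSA 3 and ROSA 4 left out instead, a fit with as many libraries that was chosen after seeing the data, all genes called numbered 1686 and 13 members rose, 12 of them from the 18 and Oas1a besides.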

How the data were processed

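RNA sequencing counts of 8 mouse samples were used. Raw read counts per gene were deposited by the authors, 1 file per sample in the layout of STAR gene counts. GRCm38, STAR 2.5.2b and HTSeq are named per the submitters' processing notes. The annotation release and read layout are not given in the sources used here. Symbols and positions came from GENCODE M21, in which 49326 of 49671 identifiers were found. The 4 lines that name no gene held 14.7% to 22.0% of a library and were left out. The opposite-strand column, with 93.4% of strand-assigned counts, was used.

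From these counts, genes kept by filterByExpr were scaled by TMM and compared by the edgeR 4.0.16 quasi-likelihood test (robust) in R 4.3.3, with 4 libraries per group and Benjamini-Hochberg adjustment over 14887 genes at 0.05. Of these, 1355 were called (9.1%), 589 higher and 766 lower, and 26.3% had an unadjusted p below 0.05. A ± after a log2 fold change is its standard error, and after a level the SD over 4 libraries. Class means are log2 CPM with a prior count of 2. The model was tested on simulated data. Near copies were found with blastn 2.17.0, and figures drawn with matplotlib 3.10.9.

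Members that passed, and all tested IFIT, OAS, MX, GBP and IRG genes, are given with every library, and other members by role. Of other lists, transcription factors of the pathway, the receptors, defining cell markers and up to 4 genes of smallest p are named, and a gene that this takes is not reported here. The members, lists and rules were chosen with earlier results of these data known. Alternatives were RLE and upper-quartile factors, DESeq2 1.42.0, limma 3.58.1 voom with quality weights, no filter, 1 CPM in 4 libraries, unstranded counts, the replicate number as a block, and libraries left out.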

Additional observations from a re-analysis of the deposited data

Results flagged for a closer look

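Within groups of 4 libraries, 4 members had 1 library further from the others than Dixon's 95% critical value allows, and in each it was BMPR2 DELX 3. Isg15 had 11.3 CPM there against 7.98 to 8.13 CPM in the other BMPR2 DELX libraries. Irgm1 had 63.7 CPM against 54.6 to 55.9 CPM. Gbp2 had 45.2 CPM against 30.7 to 32.0 CPM. Oas3 had 0.382 CPM against 0.196 to 0.201 CPM, which is few counts in any library. Chance gives about 1 in 20 such groups, and 78 groups were tested. The sum of macrophage and monocyte markers, most of it Csf1r and Lyz2, was also highest in BMPR2 DELX 3 (75.2 CPM). Most of the listed markers, Cd68 and Adgre1 among them, peaked in other libraries. Cd68, Adgre1, C1qb, C1qc, Fcer1g and Tyrobp were next highest in BMPR2 DELX 3, whereas Cd163 and Ccr2 had 0 CPM there. The sum of endothelial markers was lowest in BMPR2 DELX 3 (747 CPM). The part of these cell types in the values above was not tested. Without BMPR2 DELX 3, Isg15 was still called, and Irgm1, Gbp2 and Oas3 were still not called.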

How the results depend on the processing

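The number of members called higher was 18 with RLE or upper-quartile factors and with unstranded counts, 21 with DESeq2, 19 with voom, 20 without a filter and 17 with the 1 CPM filter. It was 11 to 17 without 1 library, with ROSA 2 giving the lowest. No member was called lower under any of these settings (0, with at most 1 at an unadjusted p below 0.05). The members' median log2 fold change ran from 0.48 (without BMPR2 DELX 3) to 0.73 without 1 library, and was 0.52 without ROSA 3 and ROSA 4. Among IFIT, OAS and MX genes, DESeq2 called 5 and fits without 1 library 2 to 3, with medians of 0.87 to 1.10. Among GBP and IRG genes, fits without 1 library called 3 to 5, with the lowest without ROSA 1 or ROSA 2. For all genes the calls were 2298 with DESeq2 and 477 to 1266 without 1 library. For receptors and signalling they were 8 with DESeq2 and 2 to 6 without 1 library, and for further interferon-stimulated genes 7 to 14. Without ROSA 1 and ROSA 2, members called higher numbered 0, IFIT, OAS and MX genes 0 (median 0.85), GBP and IRG genes 0, signalling genes 0, further genes 3 and all genes 172. Without ROSA 3 and ROSA 4, with as many libraries, they numbered 13, 4, 4, 5, 20 and 1686. The cause was not tested.

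Upper-quartile factors moved the median of all genes from 0.0045 to 0.043 and the share of higher calls from 43.5% (589 higher and 766 lower) to 54.8% (734 higher and 606 lower). Signs changed for Isg20 without BMPR2 DELX 1, for Ifitm3 without ROSA 1 and ROSA 2, and for Oas3 and Ifi44 without ROSA 3 and ROSA 4, none of which was called.

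With the replicate number as a block, 17 members were called higher (Iigp1 was lost, at 1.79 with adjusted p 0.054) and 3 signalling genes. All genes called numbered 1245. Deviations of same-numbered libraries correlated at 0.005, 0.21, 0.24 and 0.093, and the labels give no pairing. Differently numbered libraries were not compared, so these values cannot tell whether same-numbered libraries share more than a number. With 4 libraries per group and levels near 1 CPM, genes such as Mx2, Rsad2 and Cmpk2 had standard errors of 0.35 to 0.55 on the log2 scale, which limits what could be called.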
